A study of Mus musculus with 20 samples.

Results

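The regions described here are H3K14ac peaks of mouse liver that had a Setdb1 peak and a Kap1 peak at the same place. A peak of the H3K14ac list on chromosomes 1 to 19 was taken as a member when a Setdb1 peak and a Kap1 peak of the same age each overlapped it or lay within 500 bp of it. By this rule 371 of 18885 young H3K14ac peaks were members, which is 1.96% of the list, and 107 of 20120 old peaks, which is 0.532%. The members were chosen by these very positions, so the counts describe the rule and were not tested.

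Livers came from male C57BL/6 mice of 3 months (young) and 21 months (old), with no treatment or engineered allele at either age. Chromatin immunoprecipitation followed by sequencing (ChIP-Seq) had been done on 3 livers per age for H3K14ac, 3 for Setdb1 and 2 for Kap1, and the authors merged the reads of the livers of an age before peaks were called. Each of the 6 lists is therefore 1 pooled list with positions and no peak heights. No spread between livers can be read from it, and sequencing depth is unknown. The comparisons below are counts and shares with 95% Wilson intervals, which cover counting error only, and no test was made because peaks of 1 list are not replicates. Whole liver holds several cell types, so fewer cells with a peak and a weaker signal per cell cannot be told apart.

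H3K14ac, acetylation of lysine 14 of histone H3, usually accompanies active promoters and enhancers. Setdb1 is a histone methyltransferase that places H3K9 methylation, a mark of silent chromatin, and its Tudor domains can bind H3 tails that carry H3K14ac together with H3K9 methylation. Kap1, also called Trim28, is a co-repressor that KRAB zinc finger proteins bring to DNA, often at retroelements and at zinc finger gene clusters, and it recruits Setdb1. Regions with all 3 peaks thus hold a mark of active chromatin beside a repressor and its partner enzyme. H3K9me3, Hdac3 and the sequential ChIP libraries were not analysed here.

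At some of the members that overlapped between ages, the peaks of all 6 lists lay on the same bases. Such members met the rule at both ages, so the closeness of their peaks follows in part from how they were chosen. Of the 371 young members, 42 overlapped an old member, and at 32 of these at least 100 bp lay inside an H3K14ac, a Setdb1 and a Kap1 peak of both ages. The sequences below come from 9 of the 17 members whose 6 peak midpoints lay within 100 bp of each other, chosen to cover genic, intergenic and repeated sequence. Each runs 240 bases 5′ to 3′ on the plus strand of GRCm38 (mm10) and begins 60 bases before the first base common to all 6 peaks. Capitals mark bases inside all 6 peaks.
Aida (chr1:183299001-183299240): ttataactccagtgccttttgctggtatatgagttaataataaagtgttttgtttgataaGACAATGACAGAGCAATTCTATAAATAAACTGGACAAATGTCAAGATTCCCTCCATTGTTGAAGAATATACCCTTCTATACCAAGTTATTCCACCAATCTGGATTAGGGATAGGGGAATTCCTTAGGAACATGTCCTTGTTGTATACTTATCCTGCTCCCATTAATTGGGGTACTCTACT
Camk1d (chr2:5379140-5379379): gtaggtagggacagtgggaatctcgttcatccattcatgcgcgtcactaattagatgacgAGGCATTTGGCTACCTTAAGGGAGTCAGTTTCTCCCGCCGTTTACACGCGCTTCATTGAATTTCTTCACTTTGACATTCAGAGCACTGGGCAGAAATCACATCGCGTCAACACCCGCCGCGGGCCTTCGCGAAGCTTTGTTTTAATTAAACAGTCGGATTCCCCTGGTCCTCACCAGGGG
Zfp980 (chr4:145680198-145680437): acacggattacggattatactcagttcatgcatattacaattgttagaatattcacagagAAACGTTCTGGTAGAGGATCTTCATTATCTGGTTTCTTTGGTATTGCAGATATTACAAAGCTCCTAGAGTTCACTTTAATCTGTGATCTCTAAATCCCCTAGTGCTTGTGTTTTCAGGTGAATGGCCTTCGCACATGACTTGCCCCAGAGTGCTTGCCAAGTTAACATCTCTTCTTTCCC
Intergenic, chromosome 9, first site (chr9:24541867-24542106): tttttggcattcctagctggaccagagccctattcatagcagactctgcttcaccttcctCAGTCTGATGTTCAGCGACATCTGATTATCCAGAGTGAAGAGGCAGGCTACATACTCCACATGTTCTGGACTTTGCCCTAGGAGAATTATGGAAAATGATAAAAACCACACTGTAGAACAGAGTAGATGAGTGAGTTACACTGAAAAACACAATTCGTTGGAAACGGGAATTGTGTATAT
Peak1 (chr9:56260346-56260585): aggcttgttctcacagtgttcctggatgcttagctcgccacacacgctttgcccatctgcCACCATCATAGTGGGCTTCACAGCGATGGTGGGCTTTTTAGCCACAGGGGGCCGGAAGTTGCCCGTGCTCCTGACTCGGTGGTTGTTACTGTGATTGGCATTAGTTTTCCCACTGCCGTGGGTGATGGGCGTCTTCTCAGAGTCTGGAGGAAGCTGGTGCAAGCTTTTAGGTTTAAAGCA
Intergenic, chromosome 9, end (chr9:124256252-124256491): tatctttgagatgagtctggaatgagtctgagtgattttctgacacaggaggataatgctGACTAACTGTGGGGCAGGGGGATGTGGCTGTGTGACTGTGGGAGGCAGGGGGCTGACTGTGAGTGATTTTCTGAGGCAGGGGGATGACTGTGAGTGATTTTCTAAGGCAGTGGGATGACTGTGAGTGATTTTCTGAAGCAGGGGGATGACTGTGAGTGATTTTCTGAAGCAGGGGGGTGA
Mdga2 (chr12:67059337-67059576): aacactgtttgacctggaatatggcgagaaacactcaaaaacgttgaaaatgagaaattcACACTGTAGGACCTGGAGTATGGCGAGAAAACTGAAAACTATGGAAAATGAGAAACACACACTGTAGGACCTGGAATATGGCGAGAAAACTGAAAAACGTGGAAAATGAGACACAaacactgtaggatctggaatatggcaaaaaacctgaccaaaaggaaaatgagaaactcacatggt
Cmss1 and Filip1l (chr16:57391359-57391598): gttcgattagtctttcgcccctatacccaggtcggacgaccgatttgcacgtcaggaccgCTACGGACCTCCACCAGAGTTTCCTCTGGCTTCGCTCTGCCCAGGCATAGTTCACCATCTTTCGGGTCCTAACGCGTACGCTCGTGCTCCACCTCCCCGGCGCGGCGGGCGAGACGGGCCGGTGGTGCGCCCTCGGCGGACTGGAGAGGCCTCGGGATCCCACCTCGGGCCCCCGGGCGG
Fbxw4 (chr19:45649962-45650201): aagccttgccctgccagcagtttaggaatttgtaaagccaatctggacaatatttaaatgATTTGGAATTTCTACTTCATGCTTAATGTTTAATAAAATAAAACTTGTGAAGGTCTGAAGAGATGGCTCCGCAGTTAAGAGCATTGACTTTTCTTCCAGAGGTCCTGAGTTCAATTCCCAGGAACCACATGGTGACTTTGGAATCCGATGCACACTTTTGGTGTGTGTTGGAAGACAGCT

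These 9 stretches differ in composition and place. Their places are those of the annotation, and whether any stretch is a copy of ribosomal or satellite sequence was not checked. The Aida site at chr1:183299001-183299240, in an intron of a gene for an axin-interacting protein, holds 35.8% G and C, whereas the site at chr16:57391359-57391598, in introns of both Cmss1 and Filip1l, holds 67.1%. The Camk1d site at chr2:5379140-5379379 lies in an intron of a calcium/calmodulin-dependent kinase gene. The Fbxw4 site at chr19:45649962-45650201 lies in an intron of a gene for an F-box protein, and the Zfp980 site at chr4:145680198-145680437 in an intron of a zinc finger gene. The Peak1 site at chr9:56260346-56260585 lies in an exon of Peak1, a pseudokinase gene, or of its antisense transcript Peak1os.

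The Mdga2 site at chr12:67059337-67059576, in an intron of a gene for a synaptic adhesion protein, and the intergenic site at chr9:124256252-124256491 hold repeated units. In the central 500 bp of the young Mdga2 member 58.4% of bases equalled the base 58 bp further on. No reference set of satellite or ribosomal repeats was used here, so what repeats the printed stretches belong to was not checked. The share of repeated bases reached 81.8% at a lag of 186 bp for the chr9:124256240-124258137 member. The other intergenic site of chromosome 9, chr9:24541867-24542106, repeated at no lag to this extent (33.1% at most).

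At some of these sites, which were chosen for their close midpoints, the 6 peaks were nearly superimposed. The Aida member was 602 bp wide in young and 605 bp in old liver, the Setdb1 peaks there were 603 and 607 bp wide, the Kap1 peaks 607 and 610 bp, and the 6 midpoints fell within 6 bp. At Fbxw4 they fell within 6 bp, at Cmss1 and Filip1l within 10 bp, and at Camk1d within 15 bp. The others were looser, with 53 bp at chr9:24541829-24542328, 66 bp at Zfp980 and 80 bp at Mdga2. Across the 42 young members with an old counterpart, the 6 midpoints lay within 50 bp at 10 and within 100 bp at 17. At Trpm8 and Gm27878, single peaks of one list faced several peaks of another.

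Within an age, the 3 peaks of a member were stacked at some members and partly or wholly side by side at others. The rule keeps each factor peak within 500 bp, so part of the overlap follows from how members were chosen. Both factor peaks overlapped the H3K14ac peak at 188 of 371 young members (50.7%, interval 45.6 to 55.7) and at 67 of 107 old members (62.6%, 53.2 to 71.2). At least 1 base lay in all 3 peaks at 167 young members (45.0%) and 58 old members (54.2%). Neither factor overlapped the H3K14ac peak, so that both lay beside it, at 47 young members (12.7%) and 11 old members (10.3%). In young liver the Kap1 peak overlapped more often (286 members) than the Setdb1 peak (226 members), and in old liver these counts were 88 and 75. Among members of exactly 500 bp, the commonest width of the H3K14ac lists, the median distance between the midpoints of the H3K14ac peak and the nearest Setdb1 peak was 330 bp in 319 young members and 218 bp in 90 old members. For Kap1 it was 234 bp and 191 bp.

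**Figure D1:**
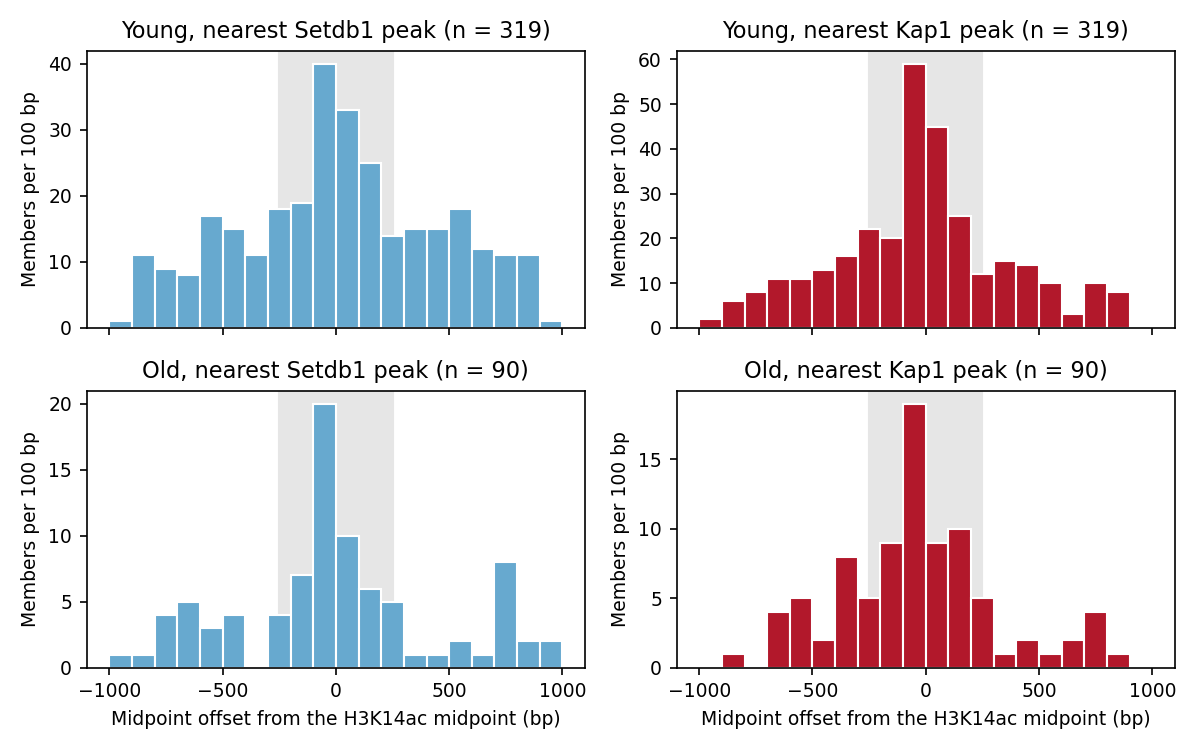
Midpoint of the nearest Setdb1 peak (left) and Kap1 peak (right) relative to the midpoint of each 500 bp member, in bp, for young (top, n = 319) and old (bottom, n = 90) liver; bars count members per 100 bp within 1000 bp to either side and the grey band marks the H3K14ac peak. The tallest bar of each panel lies inside the band, and the values spread to both sides of it.

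The limit of 500 bp fell in the middle of a continuum. The young members just inside it had their farther factor at 499 bp (chr13:12931949-12932448), 498 bp (chr9:88159234-88159733) and 497 bp. The young peaks just outside had it at 505 bp (chr4:147449155-147449654, in C230088H06Rik and Gm26624) and 508 bp for the next 2. In old liver the farther factor of the nearest inside member lay at 498 bp, and that of the nearest outside peak, in Kcnt2, a potassium channel gene, at 509 bp.

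The factor peaks at members were wide for their lists. The commonest Setdb1 peak was 200 bp, and 2.77% of young Setdb1 peaks (1365 of 49271) exceeded it, but 138 of the 304 Setdb1 peaks at young members did (45.4%, 39.9 to 51.0). Setdb1 peaks near a Kap1 peak without H3K14ac exceeded 200 bp in 9.72% of cases and those near H3K14ac without Kap1 in 7.45%. The order was the same in old liver, with 65.5% of 87 Setdb1 peaks at members, 13.7%, 7.46% and, for the whole list, 1.84%. Kap1 peaks wider than their commonest 150 bp made up 60.4% of the 391 at young members and 48.5% of those near H3K14ac without Setdb1, against 11.5% of the list. A wider peak also meets a limit of 500 bp over more positions, and the part of this in the shares was not tested.

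Whether the regions were listed again at the other age is a measure the rule did not use, and members as a whole scored higher on it than H3K14ac peaks with 1 factor or none, although members with a narrow Setdb1 peak did not exceed peaks near Kap1 only for H3K14ac or Kap1, as given further on. Of all young H3K14ac peaks 20.8% overlapped an old H3K14ac peak, and of the young members 165 of 371 did (44.5%, 39.5 to 49.6). The shares were 28.1% (26.4 to 29.7) of 2827 peaks near Kap1 only, 8.58% (6.55 to 11.2) of 571 near Setdb1 only, and 19.4% (18.8 to 20) of 15116 near neither. The interval of the members did not meet that of any of the other 3 classes. Peaks near Setdb1 alone were thus the class least often listed in both ages, and peaks near both factors the class most often listed.

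Setdb1 separated the members further. An old Setdb1 peak lay within 500 bp of 70 young members (18.9%, 15.2 to 23.2), against 1.69% of all young H3K14ac peaks. For peaks near Setdb1 only, which also had a young Setdb1 peak by definition, the share was 3.68% (2.42 to 5.56), and for peaks near Kap1 only it was 2.79%. An old Kap1 peak lay within 500 bp of 236 young members (63.6%, 58.6 to 68.3), against 11.8% of all young H3K14ac peaks and 49.3% (47.4 to 51.1) of those near Kap1 only.

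Read member by member, the old lists held all 3 peaks at 43 young members (11.6%) and none of the 3 at 109 (29.4%). The commonest state in between was H3K14ac and Kap1 without Setdb1, at 100 members (27%), followed by Kap1 alone at 74 (19.9%). H3K14ac alone was listed at 18, Setdb1 and Kap1 without H3K14ac at 19, H3K14ac and Setdb1 at 4 and Setdb1 alone at 4. These joint states are not given for all H3K14ac peaks or for peaks near Kap1 only. They therefore describe the members alone. Taken singly, 20.8% of all young H3K14ac peaks had an old H3K14ac peak, 11.8% an old Kap1 peak and 1.69% an old Setdb1 peak.

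The old members as a whole, looked up in the young lists, also had the highest shares of the classes for each mark. Members with a narrow Setdb1 peak did not for H3K14ac or Kap1, and counts per locus came closer to Kap1 only, as given further on. A young H3K14ac peak overlapped 68 of 107 (63.6%, 54.1 to 72.1), against 20% of all old H3K14ac peaks, 44.4% near Kap1 only and 11.1% near Setdb1 only. A young Setdb1 peak lay near 57 (53.3%, 43.9 to 62.4), against 4.06% of all old peaks, 11.0% of those near Kap1 only and 9.13% of those near Setdb1 only. A young Kap1 peak lay near 91 (85.0%, 77.1 to 90.6), against 12.9% of all and 71.7% near Kap1 only. All 3 young peaks were present at 44 old members and none at 12. Such joint states are not given for all old H3K14ac peaks. The old lists of Setdb1 and Kap1 were shorter than the young ones (13678 against 49271 peaks, and 21390 against 47084), so age and list length cannot be told apart in these shares.

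**Figure D2:**
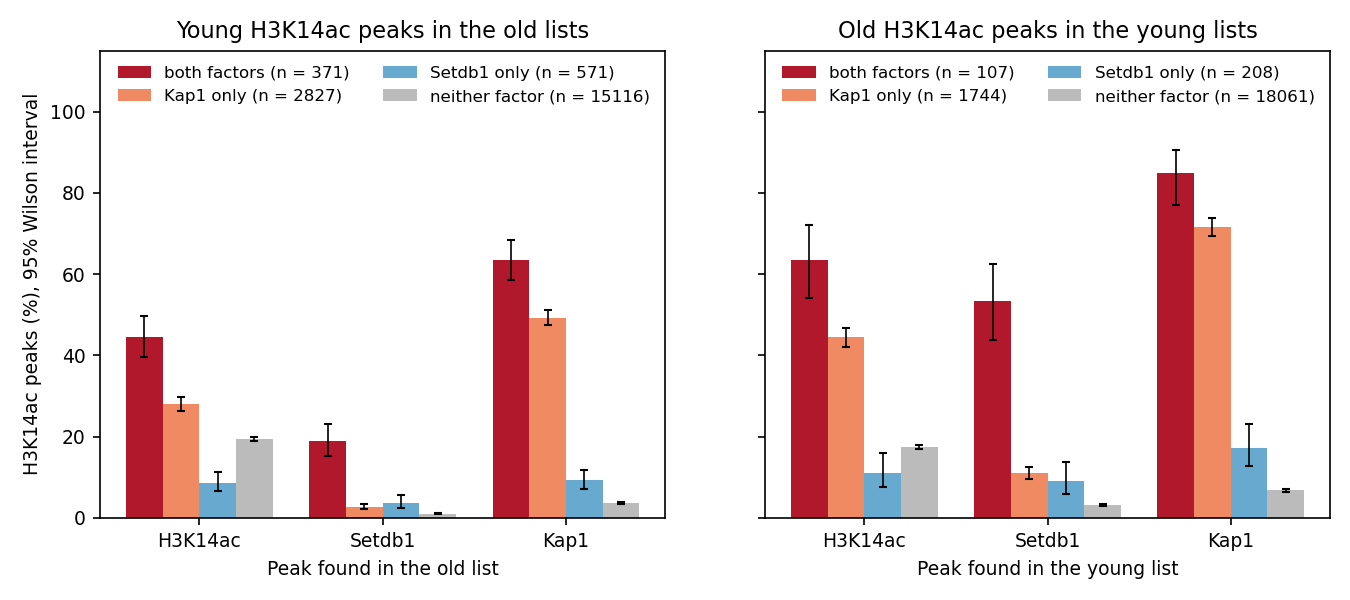
Share of young (left) and old (right) H3K14ac peaks that had an H3K14ac, Setdb1 or Kap1 peak in the list of the other age, in percent with 95% Wilson intervals, for peaks near both factors, Kap1 only, Setdb1 only or neither. Red bars (members) are the highest of each group, with 44.5%, 18.9% and 63.6% on the left, where the next highest are 28.1%, 3.68% and 49.3%.

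Lists of the other age were also put into the rule, as a description of the same positions. With young H3K14ac peaks, replacing the Kap1 list by the old one gave 289 members (1.53%), replacing the Setdb1 list gave 149 (0.789%), and replacing both gave 118 (0.625%). With old H3K14ac peaks, young Setdb1 and old Kap1 gave 249 (1.24%), old Setdb1 and young Kap1 127 (0.631%), and both young lists 310 (1.54%), against 107 with both old lists. The Setdb1 list shortened more between the ages than the Kap1 list, so these counts cannot be told apart from list length. Within each age, Setdb1 lay near 11.6% of young H3K14ac peaks that had Kap1 and 3.64% of those that lacked it, and near 5.78% and 1.14% in old liver.

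The shares listed at the other age were higher for members whose Setdb1 peak was wide. Of the 194 young members whose nearest Setdb1 peak exceeded 200 bp, 126 had an old H3K14ac peak (64.9%, 58.0 to 71.3), 171 an old Kap1 peak (88.1%) and 54 an old Setdb1 peak (27.8%, 22.0 to 34.5). Of the 177 with a Setdb1 peak of at most 200 bp the counts were 39 (22.0%, 16.6 to 28.7), 65 (36.7%, 30 to 44) and 16 (9.04%, 5.64 to 14.2). The narrow group thus lay below peaks near Kap1 only for old Kap1 (49.3%) and, with intervals that met, for old H3K14ac (28.1%), and above them for old Setdb1 (2.79%). The 39 young members with all 3 midpoints within 50 bp of each other had old H3K14ac in 33 cases (84.6%, 70.3 to 92.8) and old Setdb1 in 15 (38.5%, 24.9 to 54.1). The wide and narrow groups also differed in other ways, since 27.3% and 11.9% had a further copy at 90% identity, 25.8% and 8.47% lay within 100 kb of an assembly gap, 26.3% and 7.91% lay on chromosome 4 and 10.3% and 2.82% were tandem repeats. All 22 young members wider than 1000 bp were in the wide group. Of the 39 members with close midpoints 35.9% had a copy. The part of these in the shares was not tested. In old liver 18 of 19 members with close midpoints had a young H3K14ac peak, 16 a young Setdb1 peak and 19 a young Kap1 peak. Of the 31 old members with a Setdb1 peak of at most 200 bp, 8 had a young H3K14ac peak (25.8%, 13.7 to 43.2). A young Kap1 peak lay near 18 (58.1%, 40.8 to 73.6) and a young Setdb1 peak near 11 (35.5%, 21.1 to 53.1). Old peaks near Kap1 only had 44.4% (42.1 to 46.8), 71.7% (69.5 to 73.7) and 11.0%, so the H3K14ac and Kap1 shares lay lower with intervals that met.

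Several members often shared a locus. Members within 1000 bp of each other joined into 286 young and 87 old loci, of which 230 and 72 held a single member. Members of 1 locus share factor peaks, since 304 Setdb1 and 391 Kap1 peaks served the 371 young members. Counted once per locus by their widest member, 114 of 286 young loci overlapped an old H3K14ac peak (39.9%, 34.4 to 45.6) and 49 had an old Setdb1 peak (17.1%, 13.2 to 21.9). An old Kap1 peak lay near 164 (57.3%, 51.6 to 62.9). In old liver 49 of 87 loci overlapped a young H3K14ac peak (56.3%, 45.9 to 66.3). A young Kap1 peak lay near 71 (81.6%, 72.2 to 88.4) and a young Setdb1 peak near 45 (51.7%, 41.4 to 61.9). The old H3K14ac and Kap1 intervals met those of peaks near Kap1 only (42.1 to 46.8 and 69.5 to 73.7).

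The young locus with the most members lay in Trpm8, which encodes a cold-activated ion channel, and held 10 members over 8680 bp (chr1:88294623-88303302) with 2 Setdb1 and 5 Kap1 peaks. All 10 overlapped an old H3K14ac peak and lay near an old Kap1 peak, and 2 had an old Setdb1 peak. The old liver had 1 member there, 2401 bp wide (chr1:88299364-88301764), on an old Setdb1 peak of 1325 bp where the young list had one of 3940 bp. H3K14ac and Kap1 peaks thus covered the locus at both ages, and the Setdb1 coverage was shorter in the old list.

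**Figure D3:**
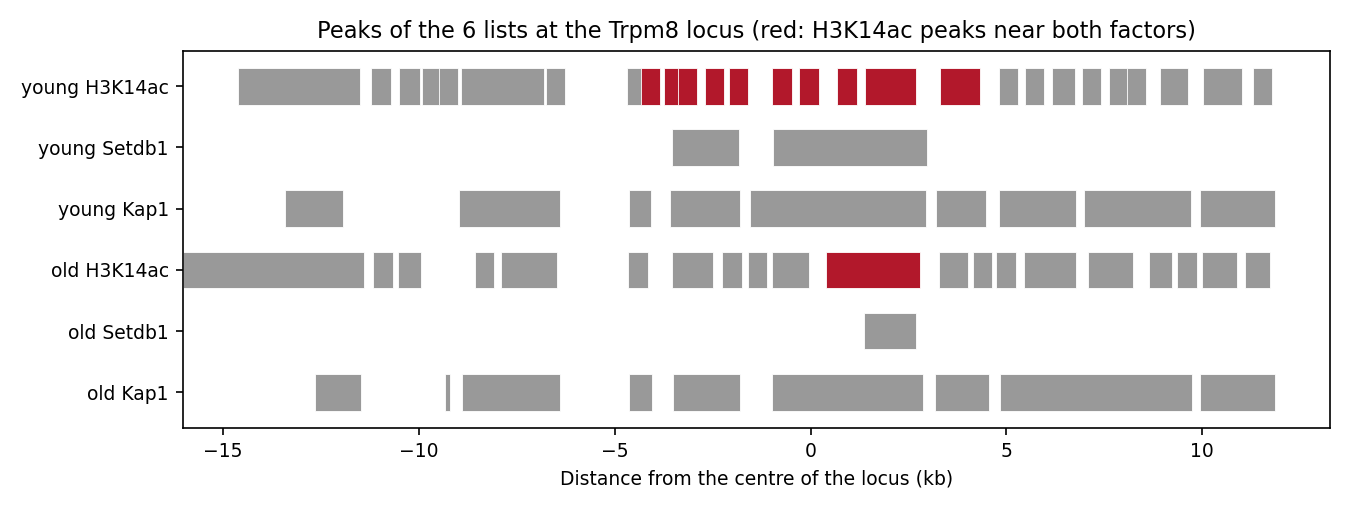
Peaks of the 6 lists at the Trpm8 locus, drawn to scale as distance in kb from the centre of the young locus; red boxes are H3K14ac peaks near both factors and grey boxes all other peaks. The young rows show 10 red boxes over 2 Setdb1 peaks, and the old rows 1 red box over 1 Setdb1 peak.

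The neighbouring gene Mroh2a, a member of the maestro heat-like repeat family, held 5 young and 3 old members that did not overlap. The young members (chr1:88235885-88243280) sat at a Setdb1 peak of 4928 bp and the old ones (chr1:88245375-88251929) at one of 2769 bp. Each of the 8 had H3K14ac and Kap1 but no Setdb1 at the other age. Here the Setdb1 peak of each age lay over a different stretch of the gene.

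The 3 Mb edge of chromosome 4 held the most members per Mb of the young list, 17 in 8 loci between 3000001 and 4000000, together with the window from 147000001 to 148000000 on the same chromosome, which also held 17. At the first, 4 young members overlapped or lay within 1 kb of the start of Gm27878, an annotated miRNA gene, and 6 old members formed the largest old locus (chr4:3051617-3055291). They lay 978 bp or more from an assembly gap, and 64.9% to 71.4% of bases in the 4 young windows repeated at a lag of 21 bp. Tmem267, a transmembrane protein gene on chromosome 13, held 4 young and 2 old members, the 4 young windows with a lag of 31 bp and 62% to 76.8% of bases repeated.

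The widest young member covered 6595 bp of the lincRNA genes 2700054A10Rik and AC174800.1 (chr17:13546626-13553220) and had all 3 old peaks. The next covered 5956 bp of Gm26917 and Gm42418 (chr17:39842925-39848880), and RefSeq lists Gm42418 as a synonym of the 18S ribosomal RNA related sequence Rn18s-rs5. It had old H3K14ac and Kap1 but no old Setdb1 peak. Then came Gm49692 at 4292 bp and Zfp981 at 4291 bp. The widest old members lay in Mroh2a (3636 bp and 2144 bp), in Trpm8 and at chr9:124256293-124258137 (1845 bp).

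Genes were described through lists of symbols and through the members at both ages. Members overlapped the body, or lay within 1 kb of a start site, of 151 genes in young and 49 in old liver, and 29 genes were shared. Of the young genes 95 were protein coding and of the old ones 38. Among the shared genes, Chia1, an acidic chitinase gene, held 1 young and 2 old members in exons. Csf2ra, the alpha subunit of the GM-CSF receptor, held the same interval at both ages (chr19:61224174-61224673). E030030I06Rik, Gm14496, AW822073 and Gm4981 held 1 member at each age, and those of AW822073 did not overlap.

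C2H2 zinc finger genes are the family from which KRAB repressors that recruit Kap1 are drawn, and were listed here by gene symbol. The list held 11 young members in 6 of 456 genes (Zfp513, Zfp600, Zfp936, Zfp980, Zfp981 and Zfp985). That is 2.96% of members, against 1.92% of all young H3K14ac peaks (362). All 11 had an old Kap1 peak nearby, 7 an old H3K14ac peak and 2 an old Setdb1 peak. In old liver 3 members lay in Zfp980 and Zfp981 (2.80% of members against 1.98% of peaks), and all 3 had all 3 young peaks. Of the 11 young members 9 lay on chromosome 4, and 6 had a further copy in the genome. Zfp981 alone held 3 of the young members, 738 bp, 4291 bp and 1555 bp wide. Genes with other kinds of symbol were not checked for zinc fingers, so the counts can miss part of the family. Gm14412, with 4 young members, and Gm14401, with 2 old members, are among the genes not checked.

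The lists of liver function held few members. Cytochrome P450 genes, which oxidise drugs and steroids, held 3 young members (Cyp2b19, Cyp2c55 and Cyp3a63-ps, 0.809% of members against 0.297% of peaks) and 0 old ones. None of the 3 had an old H3K14ac or Setdb1 peak. Lipid and apolipoprotein genes held 0 members of either age, and 0.275% of all young H3K14ac peaks (52) lay there. Nuclear receptors (0.397% of young peaks) and hepatocyte identity genes (0.164%) also held 0 members, as did imprinted genes (0.143%), histone genes (0.0424%), clustered protocadherins (0.0159%) and the genes of chromatin factors, Setdb1 and Trim28 included (0.154%). With so few H3K14ac peaks in these lists, a count of 0 members is close to the share over all peaks. Olfactory and vomeronasal receptor genes, which act in sensory neurons of the nose, held 5 young members in 4 of 1725 genes (1.35% against 0.990% of peaks) and 1 old member in Vmn1r68. No statement on these lists is made beyond the counts.

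Some other young members lay in genes with a known place in liver or metabolism, and were chosen here after their values were seen. Mup6, a major urinary protein gene, held 1 of 738 bp with a Setdb1 peak of 1785 bp and an old H3K14ac peak, and its central sequence had 19 further alignments. Fbp2, a fructose bisphosphatase, Car13, a carbonic anhydrase, Sptlc2, a subunit of serine palmitoyltransferase, and Abca5, an ABC transporter, each held 1, with none of the 3 old peaks. In Amy1, an amylase gene, an old Kap1 peak was the only one listed.

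The share of members with a gene start nearby was lower than that of H3K14ac peaks at large. A start site within 1 kb was found for 40 young members (10.8%, 8.02 to 14.3), against 27.6% of all young H3K14ac peaks and 31.3% (30.6 to 32.0) of those near neither factor. Peaks near Kap1 only (13.3%) and near Setdb1 only (10.5%) had similar shares. In old liver the values were 12.1% (7.24 to 19.7) of members, 36.5% of all, 39.1% near neither, 14.3% near Kap1 only and 10.6% near Setdb1 only. Among members with neither a copy nor an assembly gap nearby, 23 of 249 young members had a start site within 1 kb (9.24%) and 2 of 62 old ones (3.23%, 0.889 to 11.0), the latter against 13.9% near Kap1 only. With a window of 5 kb the share was 32.6% (28 to 37.5) of young members against 42.9% of all young peaks and 35.3% near Kap1 only, and 33.6% (25.4 to 43.0) of old members against 50.9% and 36.2%. Of the young members 31 overlapped an exon elsewhere (8.36%, against 6.47% of all peaks), 113 lay in introns (30.5%, against 27.5%) and 187 between genes (50.4%, against 38.5%). In old liver 14 overlapped an exon (13.1%, against 6.22%), 24 lay in introns (22.4%, against 25.9%) and 56 between genes (52.3%, against 31.3%). A coding exon was met by 22 young members (5.93%, against 15.2% of all peaks) and by 17 old members (15.9%, against 21.0%).

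The sequence under the members was richer in repeats than under H3K14ac peaks at large, and in young liver close to that under peaks near Kap1 only. Soft-masked bases, written in lower case in the assembly as known repeat sequence, had a median of 27.4% in young members, 23.4% near Kap1 only, 16.4% near Setdb1 only and 11.4% near neither, and in old liver 35.6%, 21.2%, 16.1% and 9.60%. At least 50% of bases were soft-masked in 28.3% (24.0 to 33.1) of young members against 25.3% near Kap1 only and 13.9% of all young peaks. In old liver they were in 41.1% (32.3 to 50.6) of members against 23.6% (21.6 to 25.6) near Kap1 only and 9.17% of all. Among old members with neither a copy nor a gap nearby, the soft-masked median was 23.4%, against 19.2% near Kap1 only. At least 50% of bases were soft-masked in 35.5% (24.7 to 47.9) of them, against 21.1% (18.9 to 23.5). G and C content had a median of 45.6% in young members and 46.8% in all young peaks, and of 46.8% and 49.2% in old liver, where it was 44.6% near Kap1 only and 50% near neither. In young liver the G and C median was 44.6% near Kap1 only, and the median observed to expected ratio of CpG was 0.142 in members, 0.125 near Kap1 only, 0.137 near Setdb1 only and 0.178 in all peaks.

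Further copies and assembly gaps moved with the members. The central 500 bp aligned elsewhere in the genome over at least 90% of its length at 90% identity for 74 young members (19.9%, 16.2 to 24.3), against 5.04% of all young peaks, 19.1% near Kap1 only and 3.15% near Setdb1 only. At 95% identity the shares were 7.01% of young members, 8.52% near Kap1 only and 2.10% of all young peaks, and 9.35%, 9.81% and 1.37% in old liver. For 53 of the 74 young members with a copy at 90% a copy lay within 5 Mb on the same chromosome, and for 8 a copy was itself a young member. A run of at least 1000 unknown bases lay within 100 kb of 65 young members (17.5%, 14 to 21.7), against 3.93% of all young peaks, 14.2% near Kap1 only and 2.80% near Setdb1 only. In old liver 28 members did (26.2%, 18.8 to 35.2), against 3.07% of all peaks and 16.3% (14.7 to 18.2) near Kap1 only. With each locus counted once the old share was 21.8% (14.5 to 31.6), and its interval met that of peaks near Kap1 only. The part of copies and gaps in the results was not tested, beyond leaving out the members that had them as is done further on.

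Tandem repetition was more common in members than in peaks near Kap1 only. At least 60% of bases repeated at a fixed lag of 10 to 250 bp in 25 young members (6.74%, 4.61 to 9.76), against 0.551% of all young peaks, 1.56% (1.16 to 2.08) near Kap1 only and 1.75% near Setdb1 only. In old liver 13 members did (12.1%, 7.24 to 19.7), against 0.398% of all and 2.58% near Kap1 only. The 25 young members fell into 13 loci, and 13 of them lay in the first assembled Mb of chromosome 4, so neighbouring members shared an array. Among members with neither a copy nor a gap nearby it was found in 3 of 249 (1.20%, 0.411 to 3.48), against 0.884% (0.560 to 1.39) near Kap1 only, and in old liver in 3 of 62 (4.84%, 1.66 to 13.3), against 1.09% (0.635 to 1.85). The intervals of members and Kap1 only met there at both ages. A young member in Gm26870 (chr9:3029429-3030322) repeated at a lag of 234 bp in 89.1% of bases and an old member at Gm10800 (chr2:98666148-98667399) at the same lag in 89.8%. Of the 20-base words of the young Mdga2 member printed above, 10.4% occurred in Gm26870.

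**Figure D4:**
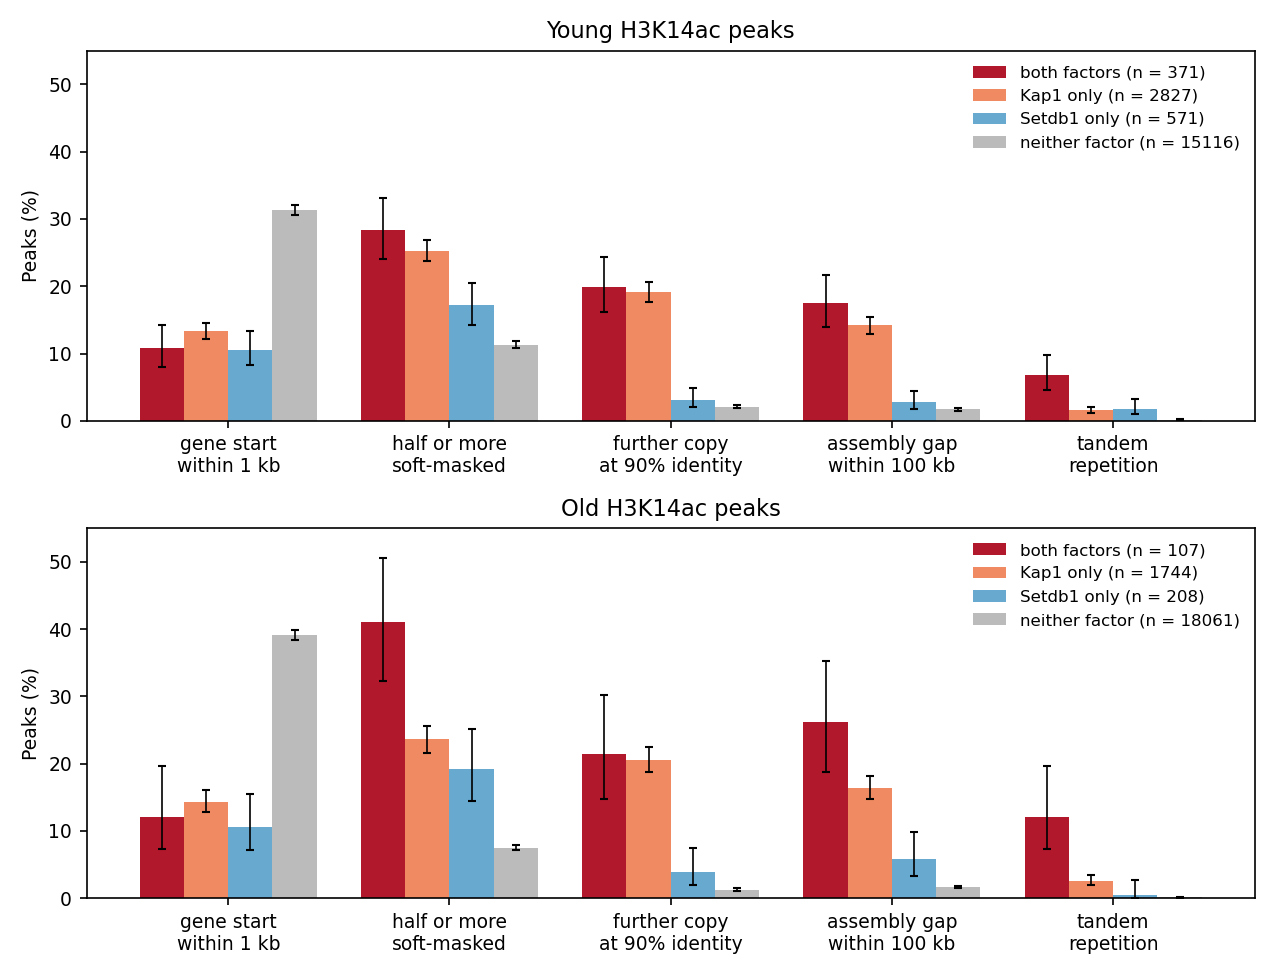
Share of young (top) and old (bottom) H3K14ac peaks, in percent with 95% Wilson intervals, with a gene start within 1 kb, at least 50% soft-masked bases, a further copy at 90% identity, an assembly gap within 100 kb or tandem repetition, by class of peak. Red (members) stands apart from the bar for Kap1 only in tandem repetition (6.74% and 1.56% of young peaks) and, in old liver, also in soft-masking (41.1% and 23.6%) and assembly gaps (26.2% and 16.3%, or 21.8% of old members with each locus counted once, whose interval meets that of Kap1 only).

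The shares at the other age were also counted for members without a copy and away from gaps, beside peaks near Kap1 only with neither. Widths of the factor peaks were not matched between these classes. Repeated sequence was not all removed in this way. A 50-base word that occurs more than once in the genome remained in 36.5% of these young members and 48.4% of these old members. The shares were 33.0% and 31.6% near Kap1 only, and 17.0% and 12.8% of all H3K14ac peaks with neither. In the 249 young members with neither, 94 overlapped an old H3K14ac peak (37.8%, 32.0 to 43.9), 35 had an old Setdb1 peak (14.1%, 10.3 to 18.9) and 126 an old Kap1 peak (50.6%, 44.4 to 56.8). For the 2036 peaks near Kap1 only with neither, the shares were 23.1% (21.3 to 25), 2.70% (2.08 to 3.50) and 41.1% (38.9 to 43.2). In old liver 28 of 62 such members had a young Setdb1 peak (45.2%, 33.4 to 57.5), against 10.4% of 1198 peaks near Kap1 only. By the rule, members have a Setdb1 peak of their own age and peaks near Kap1 only lack one. Part of the difference in the Setdb1 shares can follow from that choice, and this subset of peaks near Setdb1 only is not given.

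Motifs were searched on both strands of the central 500 bp. ATTGAT, the core bound by Onecut (Hnf6) factors of hepatocytes, was present in 83 young members (22.4%, 18.4 to 26.9), 16.9% of all young peaks and 21.4% of those near Kap1 only. The CArG box was present in 14 (3.77%), against 2.49% of all, and in 3 old members (2.80%, against 2.23%). ACNGGNGANAANCC, letters that encode the linker between zinc fingers, was present in 1 (0.270%), against 0.233% of all, and in 0 of 107 old members, against 0.174% of all. ATTGAT was present in 21 old members (19.6%, 13.2 to 28.1), against 14% of all old peaks and 19.4% of those near Kap1 only.

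The chromosomes did not share the members evenly. Chromosome 4 held 65 young members, which was 3.78% (2.98 to 4.79) of its 1719 H3K14ac peaks, and chromosome 11 held 2, which was 0.245% (0.0672 to 0.888) of 817. In old liver chromosome 4 held 20 (1.08%, 0.703 to 1.67) and chromosome 11 held 0 of 1015. On chromosome 4 lay 17.5% of young members, 17.1% of peaks near Kap1 only and 9.10% of all young peaks. In old liver it held 18.7% of members, 23.6% of peaks near Kap1 only and 9.17% of all. Among the 249 young members with neither a copy nor a gap nearby, 19 lay on chromosome 4 (7.63%, 4.94 to 11.6), against 12.2% near Kap1 only and 7.98% of all such peaks. In old liver 9 of 62 did (14.5%, 7.83 to 25.3), against 16.6% near Kap1 only and 8.26% of all such peaks.

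**Figure D5:**
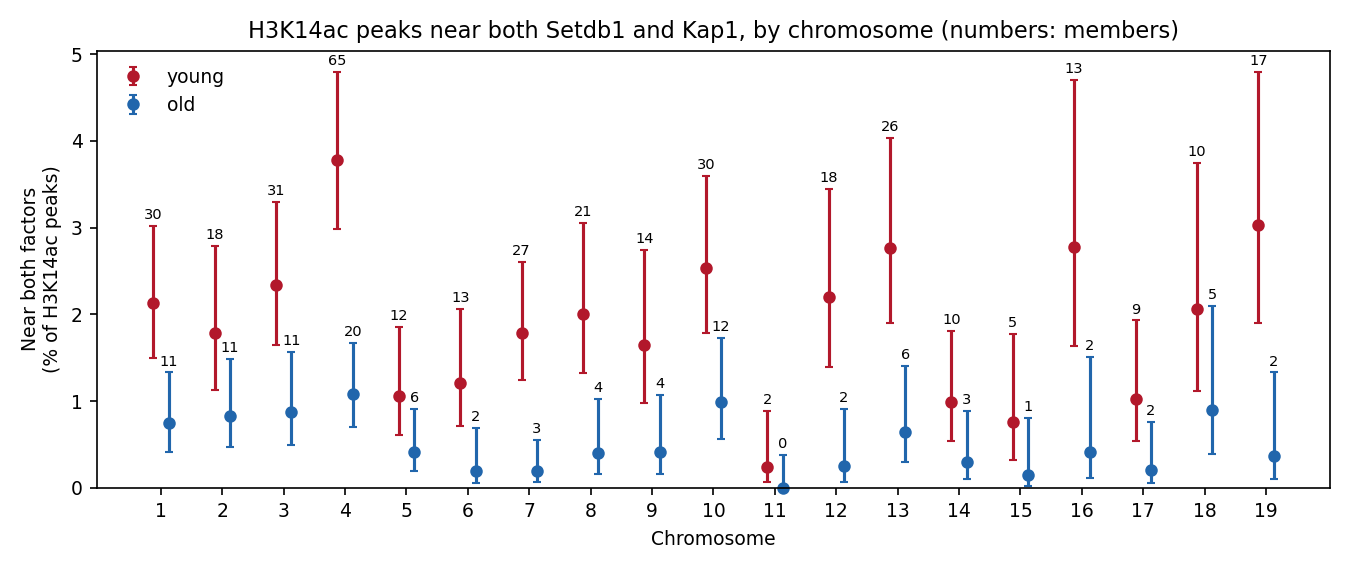
Share of the H3K14ac peaks of each chromosome that lay near both factors, in percent with 95% Wilson intervals, for young (red) and old (blue) liver; the number at each point counts the members. Chromosome 4 is high at both ages (65 and 20 members) and chromosome 11 low (2 and 0).

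Members and peaks near Kap1 only were both common among the first entries of the H3K14ac lists. In the whole lists, members made up 1.96% of young and 0.532% of old autosomal peaks. Peaks near Kap1 only numbered 2827 of 18885 and 1744 of 20120. Of the 84 autosomal peaks among the first 100 young entries, 24 were members (28.6%), 50 lay near Kap1 only and 5 near neither factor. Of the 93 among the first 100 old entries, 13 were members (14%, 8.35 to 22.5) and 66 lay near Kap1 only. The Aida member was entry 13 of the young list and entry 12 of the old list, whereas Cmss1 and Filip1l held entries 93 and 1150 and Mdga2 entries 558 and 14616. Among the first 1000 entries the share of members was 8.32% (80 of 961) in young and 2.84% (28 of 985) in old liver. Over the whole list the median member stood at 49.0% of the young list and 34.3% of the old list. For all H3K14ac peaks these places were 49.4% and 49.7%, and for peaks near Kap1 only 57.3% and 60.4%. The sources used here do not say what the order of entries means. Members wider than 1000 bp numbered 22 in young liver (5.93%, 3.95 to 8.81), against 0.704% of all young peaks and 3.36% near Kap1 only, and 10 in old liver (9.35%, 5.16 to 16.4), against 0.457% and 3.90%.

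The study draws windows in its figures as examples of different features, and not all of them were looked up here. It shows Gm14412, Zfp180 and Zfp316 for a pair of histone marks. An intergenic window and Rnpepl1 stand for sequential ChIP with Setdb1 binding. Apob, Apoc1 and Gm49692 stand for Setdb1 and Kap1 binding, Gm49692 at both ages. Those figures show read signal, whereas peak lists were used here, so the counts do not test them. Of 8 windows looked up, 2 held members, in young liver only. The window at Gm14412 held 2 young members with 1 Setdb1 peak, and in old liver 3 H3K14ac and 3 Kap1 peaks but no Setdb1 peak. The window in Gm49692 held 1 young member and, in old liver, an H3K14ac and a Kap1 peak without Setdb1. Windows at Zfp180, Zfp316, Apob, Apoc1 and Rnpepl1 and an intergenic window on chromosome 14 held no member of either age. The Apob window held 2 young and 1 old H3K14ac peaks, and no Setdb1 or Kap1 peak of either age was listed there. The Apoc1 window held 5 H3K14ac peaks, 1 Setdb1 peak and 1 Kap1 peak in young liver.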

How the data were processed

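The deposited files used here are 6 peak lists, 1 per mark and age, that give chromosome, start and end of each peak. Their unit is a position in bp, with no count, signal or p-value. Per the methods of the study, the authors aligned reads to mm10 with BWA, removed duplicates with Picard, kept only uniquely placed reads and merged the livers of an age. PeakSeq then found the peaks over input, with a threshold of its own for each mark. Members and lists were chosen with earlier results of these data known. Peaks on chromosomes 1 to 19 were compared in Python 3.11.15. The rule was tested on simulated lists and against bedtools 2.31.1, which found the same 478 members (0 differing).

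Genes and exons came from the basic set of GENCODE vM21 and sequence from the RefSeq copy of GRCm38, in which 0 peaks ran past a chromosome end. A start site was counted within 1 kb. Classes of H3K14ac peak are near both factors, Kap1 only, Setdb1 only or neither. Copies were found with minimap2 2.31. Most printed genes overlap members at both ages, hold the widest or densest members, lie at the limit of the rule, or belong to the gene lists. Others lie in windows shown by the study or were picked after their values were seen. The gap and tandem measures, the splits by factor width and midpoint, the counts among the first list entries and the leaving out of members with a copy or a gap were added after seeing the data. The replicate numbers of single livers could not be used in pooled lists. Depth of the libraries is unknown. One site is not reported here.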

Additional observations from a re-analysis of the deposited data

How the results depend on the processing

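The count and the other-age shares of the members depended on how close a factor had to be. Requiring an overlap of at least 1 bp gave 188 young and 67 old members, a limit of 1000 bp gave 168 old members, and the first 50% of each list gave 65 and 21. The share of young members with an old H3K14ac peak (44.5%) was 59.0% for overlaps, 52.1% for at most 200 bp, 38.3% for at most 1000 bp, 36.5% with every peak set to 200 bp, 35.4% without peaks wider than 1000 bp, 61.5% in the first 50% of the lists and 55% with a gap of at most 500 bp allowed to the old peak. The share with an old Setdb1 peak (18.9%) was 27.7% for overlaps and 13.9% for at most 1000 bp. The share with an old Kap1 peak (63.6%) was 75% for overlaps, 69.9% and 54.9% for at most 200 and 1000 bp, 52.4% without wide peaks and 83.1% in the first 50%. For old members, the share with a young H3K14ac peak (63.6%) was 76.1% for overlaps, 51.9% with every peak set to 200 bp and 90.5% in the first 50%, and the share with a young Kap1 peak (85.0%) was 75.3% with every peak set to 200 bp and 74.4% without wide peaks. A start site window of 5 kb took in 32.6% of young and 33.6% of old members. Copies were found for 7.01% of young and 9.35% of old members at 95% identity, and for 19.9% and 21.5% at 90%.

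As alternatives chosen after seeing the data, leaving out members with a copy gave 57.9% with an old Kap1 peak, and leaving out members near an assembly gap gave 56.5% with old Kap1 and 14.4% with old Setdb1. In all, 75 of 106 alternative values stayed within the interval of the reported share or within 1.5 times the reported count, and the cause of the other 31 was not tested. No paired analysis was possible because the lists pool the livers of an age, and for the same reason no liver could be left out. Depth limits what a missing peak means: a region absent from a list can be one that fell below the threshold of that list.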
